A study of Mus musculus with 4 samples.

Results

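A set of 9 genes that encode ligands for inhibitory or costimulatory receptors of T and NK cells were followed across 4 spatial transcriptomes of MC38 tumors. They were found by their symbols, Cd274, Pdcd1lg2, Cd276, Cd80, Cd86, Vsir, Lgals9, Pvr and Nectin2, and made up 9 of the 32285 genes in the count tables. The MC38 line came from a colon tumor of a C57BL/6 mouse, and its cells had been placed under the skin of female hosts aged 8 to 12 weeks. Every host was an F1 animal with a C57BL/6J parent. The other parent was CC075/UncJ for the 2 tumors called CC075F1 and CC080/TauUncJ for the 2 called CC080F1, both lines of the Collaborative Cross, a panel of recombinant inbred mice. The study treated CC075F1 as a line that responds to antibodies against PD-1 and CC080F1 as a line that does not. All 4 hosts had received 200 µg of the isotype control antibody 2A3 once tumors had reached 75 to 110 mm3, and were killed 48 hours later, so no value below is a response to treatment. Each tumor gave 1 section, and the section, not the spot, was the replicate (n = 2 per strain).

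Cd274 encodes PD-L1 and Pdcd1lg2 encodes PD-L2, the ligands of the inhibitory receptor PD-1 on activated T cells. PD-L1 is made by many cell types and is induced by interferon-gamma, and also by the hypoxia factor HIF-1, whereas PD-L2 is found mainly on macrophages and dendritic cells. Cd276 encodes B7-H3, a B7 family member known from tumor cells, fibroblasts and tumor vessels. Cd80 and Cd86 encode the B7 proteins of antigen presenting cells that bind CD28 and CTLA-4. Vsir encodes VISTA, a myeloid and T cell protein with inhibitory activity, and Lgals9 encodes galectin-9, a secreted lectin that binds TIM-3. Pvr (CD155) and Nectin2 (CD112) encode adhesion molecules that bind the activating receptor CD226 and the inhibitory receptor TIGIT. Nectin2 also binds the inhibitory receptor PVRIG.

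By GENCODE vM21 on GRCm38, the build of the files, all 9 are protein coding genes. Cd274 (ENSMUSG00000016496) lies at chr19:29367455-29388095 (+) and Pdcd1lg2 (ENSMUSG00000016498) 22.8 kb downstream at chr19:29410919-29471161 (+). Cd276 (ENSMUSG00000035914) lies alone at chr9:58524298-58555437 (-). Nectin2 and Pvr are also neighbours, 153 kb apart, at chr7:19716644-19750483 (-) and chr7:19903578-19921160 (-). Cd86 at chr16:36603869-36666081 (-) and Cd80 at chr16:38455561-38496335 (+) share a chromosome at a distance of 1789 kb. Vsir lies at chr10:60346851-60372684 (+) and Lgals9 at chr11:78962974-78984946 (-).

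Promoter windows of RefSeq (GRCm38.p6), from 250 bases before to 50 bases after a gene's annotated start, were listed for 7 of the 9 genes, and Cd86 and Pvr were not matched. Cd274, Cd276 and Lgals9 are shown because the results below turn on how these genes followed interferon response and hypoxia genes across spots. The windows lie at chr19:29367188-29367487 on the plus strand, chr9:58554984-58555283 on the minus strand and chr11:78984875-78985174 on the minus strand. Capitals mark matches on either strand to GAAANNGAA, the core of the interferon-stimulated response element, or to ACGTG, and no 2 matches overlapped. ACGTG is only 1 form of the core of the hypoxia response element. The other form, GCGTG, was not searched for, and where it occurs it is left in lower case.
Cd274: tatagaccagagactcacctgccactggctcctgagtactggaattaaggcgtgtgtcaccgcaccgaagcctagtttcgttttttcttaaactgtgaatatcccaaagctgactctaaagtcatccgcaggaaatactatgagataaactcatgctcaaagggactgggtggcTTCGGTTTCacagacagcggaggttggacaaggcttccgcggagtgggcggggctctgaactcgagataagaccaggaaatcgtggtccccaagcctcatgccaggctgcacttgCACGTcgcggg
Cd276: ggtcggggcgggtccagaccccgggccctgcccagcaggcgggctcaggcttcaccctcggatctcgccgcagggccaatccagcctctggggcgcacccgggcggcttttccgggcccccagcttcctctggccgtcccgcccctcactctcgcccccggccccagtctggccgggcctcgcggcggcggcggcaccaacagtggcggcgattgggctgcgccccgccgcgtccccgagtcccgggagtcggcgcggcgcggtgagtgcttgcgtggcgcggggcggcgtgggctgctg
Lgals9: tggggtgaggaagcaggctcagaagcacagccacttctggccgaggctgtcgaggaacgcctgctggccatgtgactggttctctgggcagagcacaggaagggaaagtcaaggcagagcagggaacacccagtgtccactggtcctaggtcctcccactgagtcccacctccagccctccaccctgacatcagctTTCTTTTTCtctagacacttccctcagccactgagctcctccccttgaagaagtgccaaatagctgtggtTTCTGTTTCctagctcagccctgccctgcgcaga
The Cd274 window held 1 match to GAAANNGAA, which began 76 bases before the start, and 1 to ACGTG, which began 39 bases after it. The Lgals9 window held 2 matches to GAAANNGAA, the first 54 bases before and the other 16 bases after the start. Neither motif was found in the windows of Pdcd1lg2, Cd276, Cd80, Vsir or Nectin2, and ACGTG was not in that of Lgals9. The windows of Cd276, Cd80 (chr16:38458683-38458982) and Nectin2 (chr7:19749524-19749823) lie wholly inside the GENCODE spans given above. They therefore do not cover the starts of those spans. Of all 32851 promoter windows in the table, 8.56% held GAAANNGAA and 19.6% held ACGTG. The Cd276 window was richer in G and C, at 78.3% with 39 CpG, than that of Cd274, at 52.7% with 15 CpG. A match of letters is a description and not a sign that a factor binds there.

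The sections held 2710 to 3276 spots and 82594649 to 146460975 UMIs, with medians of 31139 to 41740 UMIs per spot. A UMI marks 1 captured RNA molecule, and levels are given in counts-per-million (CPM), a gene's UMIs over all UMIs of the section or zone. Each spot covers several cells, so MC38 cells and host cells could both have contributed, and more cells of a type cannot be told apart from more RNA per cell. Shisal2b, the transcript by which the study recognised MC38 cells, stood at 123 to 267 CPM, whereas 5 epithelial genes (Krt8, Krt18, Krt19, Epcam and Cdh1) summed to only 0.860 to 2.64 CPM. Muscle genes stood apart at the edge of CC075F1 replicate 2, where they summed to 772 CPM against 10.1 CPM in its interior. Values per section are given below in the order CC075F1 replicate 1, CC075F1 replicate 2, CC080F1 replicate 1 and CC080F1 replicate 2.

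The first question was whether the ligands differed in level between the hosts. No ligand passed the test between strains, although Cd86 and Vsir were higher in both CC075F1 sections than in either CC080F1 section, and Cd276, Lgals9, Pvr and Nectin2 were lower in both. That is 6 of 9 genes without overlap in CPM, 2 of them higher in CC075F1. Among all 15572 genes tested, 36.9% did not overlap, 6.63% being higher and 30.3% lower in CC075F1.

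**Figure D1:**
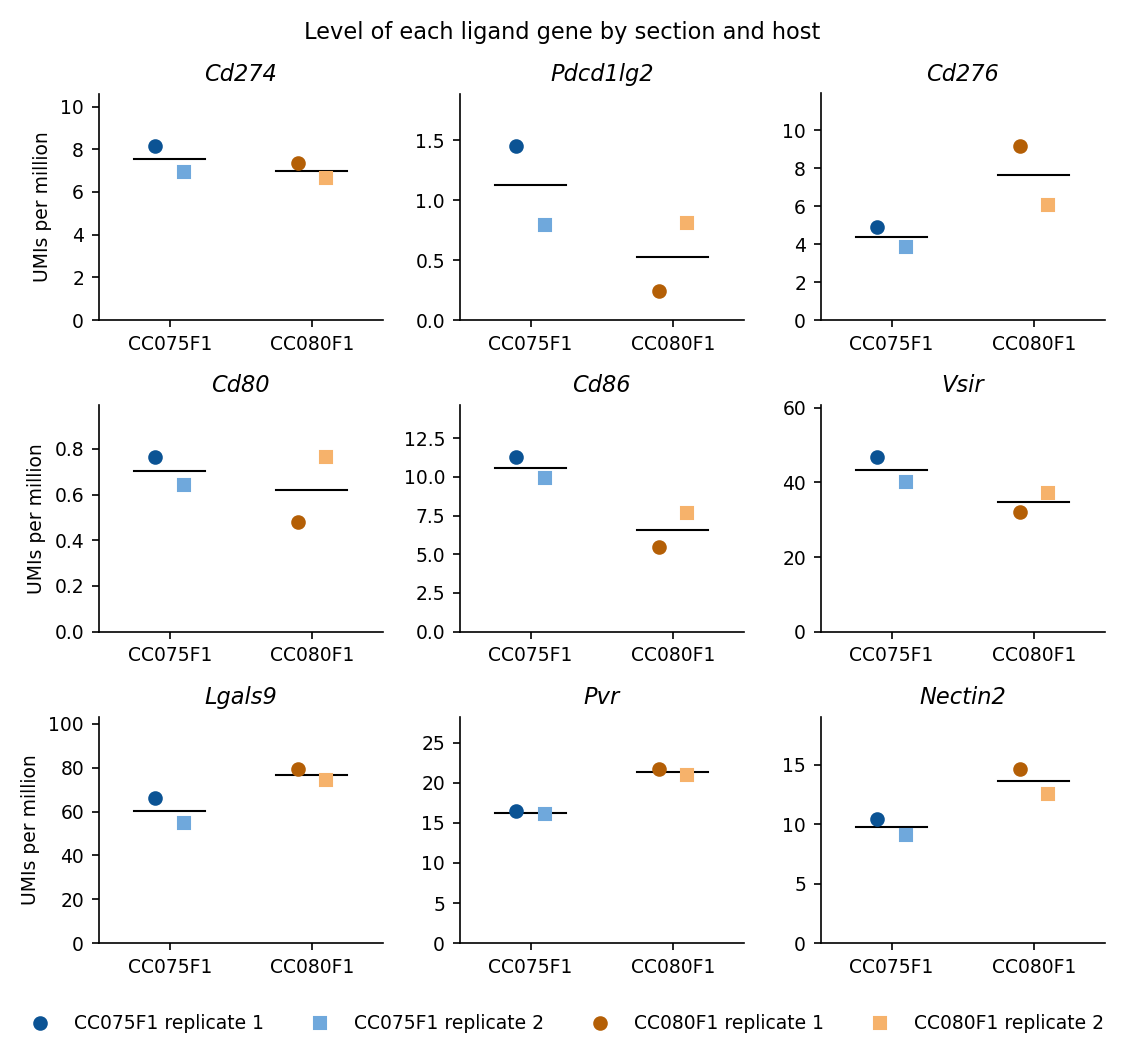
Level of each of the 9 ligand genes in CPM (vertical axis, from 0) in the 2 CC075F1 and 2 CC080F1 sections; points are sections and black lines are strain means. Cd86 and Vsir sit higher in both CC075F1 sections, Cd276, Lgals9, Pvr and Nectin2 sit lower, and Cd274, Pdcd1lg2 and Cd80 overlap. On the scale of edgeR's test Lgals9 and Pvr barely differ, with log2 differences of -0.034 and -0.058.

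Of the PD-1 ligands, Cd274 was close in the 4 sections, at 8.16, 6.92, 7.34 and 6.66 CPM (from 674, 1013, 687 and 750 UMIs). The strain means were 7.54 CPM ± 0.880 (SD, n = 2) in CC075F1 and 7.00 CPM ± 0.485 (SD, n = 2) in CC080F1, and the sections overlapped. Pdcd1lg2 was sparse, with 120, 116, 23 and 91 UMIs, or 1.45, 0.792, 0.246 and 0.808 CPM. Its low value came from CC080F1 replicate 1, whereas CC080F1 replicate 2 matched CC075F1 replicate 2. Cd276 went the other way from Cd86, with 4.92, 3.86, 9.19 and 6.09 CPM and means of 4.39 CPM ± 0.743 (SD, n = 2) in CC075F1 and 7.64 CPM ± 2.19 (SD, n = 2) in CC080F1. Both CC080F1 sections were above both CC075F1 sections.

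Of the CD28 and CTLA-4 ligands, Cd86 stood at 11.3, 9.93, 5.45 and 7.68 CPM, with means of 10.6 CPM ± 0.946 (SD, n = 2) in CC075F1 and 6.56 CPM ± 1.57 (SD, n = 2) in CC080F1. Every CC075F1 section was above every CC080F1 section. Cd80 had only 63, 94, 45 and 86 UMIs, or 0.763, 0.642, 0.481 and 0.763 CPM, and overlapped between strains. Vsir stood at 46.7, 40.0, 32.0 and 37.2 CPM and Lgals9 at 66.1, 54.7, 79.5 and 74.3 CPM. Pvr was the most even within a strain, with means of 16.3 CPM ± 0.253 (SD, n = 2) in CC075F1 and 21.4 CPM ± 0.543 (SD, n = 2) in CC080F1, and Nectin2 stood at 10.5, 9.07, 14.7 and 12.6 CPM.

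In edgeR's quasi-likelihood test on summed UMIs, 0 of 9 ligands passed an adjusted p (Benjamini-Hochberg over all genes) of 0.05, as did only 0.0899% of the 15572 genes tested. At an unadjusted p under 0.05 there were 2, Cd86 and Vsir, beside 846 of the 15572 genes. DESeq2 called 0 ligands, with 3 at an unadjusted p under 0.05. The estimated log2 difference, CC075F1 minus CC080F1, was 1.00 ± 0.28 (SE) for Cd86 (adjusted p = 0.543), 0.64 ± 0.21 (SE) for Vsir (adjusted p = 0.700) and 1.31 ± 0.61 (SE) for Pdcd1lg2 (adjusted p = 0.830). For Cd274 it was 0.43 ± 0.23 (SE) and for Cd276 -0.48 ± 0.27 (SE), both with adjusted p = 0.830. For Lgals9 it was -0.034, for Pvr -0.058 and for Nectin2 -0.16. These are on edgeR's TMM scale, on which the lower CPM of Lgals9 and Pvr in CC075F1 was nearly absent. Scaling by total UMIs alone moved the median of all genes from -0.019 to -0.31, Cd274 to 0.11 and Cd276 to -0.80.

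Counted per spot, at least 1 UMI of Cd274 was found in 20.4% (95% exact interval 18.9 to 22.0), 24.4% (23.0 to 25.9), 20.7% (19.2 to 22.3) and 19.9% (18.6 to 21.4) of spots. The highest share belonged to the most deeply sequenced section. For Cd276 the shares were 13.2% (12.0 to 14.6), 14.8% (13.6 to 16.1), 24.7% (23.1 to 26.3) and 18.0% (16.7 to 19.4). The intervals cover counting error only. If every spot of at least 10000 UMIs were thinned to 10000, which leaves out 53 to 205 shallower spots per section, the expected Cd274 share would be 8.22, 6.63, 7.19 and 6.80% and the Cd276 share 4.95, 4.48, 8.72 and 5.81%. Cd276 then still had the higher share in both CC080F1 sections, and Cd274 still overlapped. In a two-sided exact permutation test of 2 against 2 sections the smallest possible p is 0.333, which Cd276 reached with and without thinning, and Cd274 gave p = 0.667 without and 1.00 with thinning.

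The next question was where in a tumor the ligands were found. In each section, spots were ranked by the summed UMIs of 20 interferon response genes, such as Irf1, the Gbp family and Cxcl9, within 10 strata of spot depth, and the third of spots with the highest values (interferon-high) was compared with the lowest (interferon-low). None of the 9 ligands was in that list. Interferon-high spots had more Cd274, Pdcd1lg2, Cd276, Cd86, Vsir and Lgals9 and less Pvr. Thus 7 of 9 passed edgeR's paired test, 6 of them higher, against 17.2% of the 13870 genes tested (9.25% higher and 7.95% lower).

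**Figure D2:**
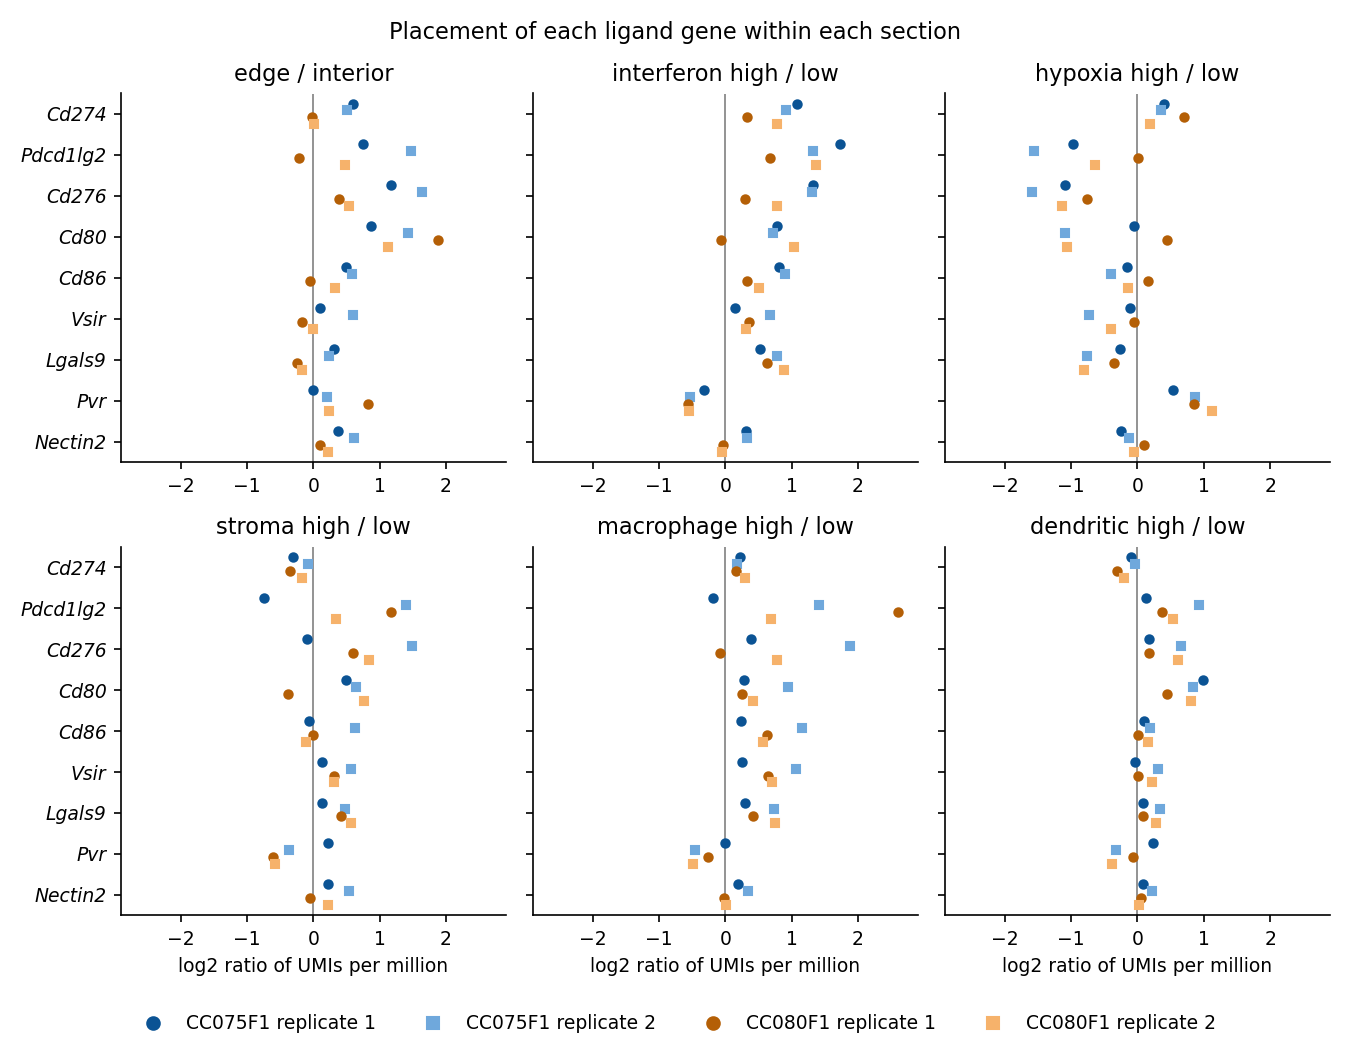
Log2 ratio of CPM between 2 zones of the same section (horizontal axis) for each ligand (rows), for edge against interior and for spots high against low in 5 gene lists; each point is a section and the grey line is no difference. Cd274 lies right of 0 in all 4 sections for interferon and for hypoxia, Cd276 right for interferon and left for hypoxia, and Pvr left for interferon and right for hypoxia.

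Cd274 stood at 11.8, 9.65, 8.78 and 8.97 CPM in interferon-high and 5.60, 5.13, 7.02 and 5.23 CPM in interferon-low spots, so it was higher in 4 of 4 sections. Its log2 difference was 0.65 ± 0.11 (SE) with adjusted p = 0.00644. The PD-L2 gene had the same direction in 4 of 4 sections, at 2.30, 1.18, 0.355 and 1.17 against 0.695, 0.470, 0.223 and 0.454 CPM and a log2 difference of 1.25 ± 0.21 (SE) (adjusted p = 0.00580). In CC080F1 replicate 1 that rests on 11 against 7 UMIs. Cd276 was also higher in 4 of 4, at 7.07, 5.96, 9.72 and 7.18 against 2.82, 2.41, 7.95 and 4.19 CPM, with a log2 difference of 0.75 ± 0.16 (SE) (adjusted p = 0.0134). The smallest gap was in CC080F1 replicate 1, and without CC080F1 replicate 2 the Cd276 call was lost (adjusted p = 0.0640).

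The other 3 ligands that rose are known from myeloid cells. Lgals9, itself an interferon-inducible gene, rose by 0.58 ± 0.052 (SE) (adjusted p = 0.000263), Cd86 by 0.53 ± 0.094 (SE) (adjusted p = 0.00694) and Vsir by 0.25 ± 0.062 (SE) (adjusted p = 0.0247) on the log2 scale. The Vsir call was lost without CC075F1 replicate 2 (adjusted p = 0.0745) and without CC080F1 replicate 2 (adjusted p = 0.0865). Pvr was lower in 4 of 4 sections, by log2 ratios of -0.32, -0.53, -0.56 and -0.55, and its fitted difference was -0.62 ± 0.062 (SE) (adjusted p = 0.000445). Cd80, at 0.53 ± 0.22 (SE), and Nectin2, at 0.0054 ± 0.080 (SE), did not pass (adjusted p = 0.137 and 0.974). Cxcl9, which leads the list that made the split, had log2 ratios of 1.90, 2.85, 2.38 and 3.04. In edgeR's interaction test of interferon with strain 0 of 9 ligands passed (3 at an unadjusted p under 0.05), as did 0.0144% of genes. Unadjusted, 721 of the 13870 genes were under 0.05. Scaling by total UMIs alone moved the median of all genes from -0.015 to 0.11 and left all 7 calls in place.

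The split also moved other lists: hypoxia genes summed to 0.553 to 0.764 times, endothelial genes (Pecam1 and Cdh5) to 1.13 to 2.08 times and lymphoid genes (Cd3e, Cd8a, Ncr1 and Cd79a) to 1.40 to 2.19 times their level in interferon-low spots. By edgeR 8 of 17 stroma genes rose, such as Col1a2 (1.17 ± 0.26 (SE), adjusted p = 0.0164), and 1 fell, while 6 of 9 dendritic genes rose, such as Ccl22 (2.17 ± 0.17 (SE), adjusted p = 0.000147). Over all genes 9.25% rose and 7.95% fell. Of 12 macrophage genes 6 rose and 1 fell. Summed, stroma genes were at 0.987 to 1.62, dendritic genes at 1.06 to 1.34 and macrophage genes at 1.07 to 1.47 times their interferon-low level. The part of endothelial, lymphoid, stroma, dendritic and macrophage genes in the ligand values, those of Cd276, Pdcd1lg2, Cd86, Vsir and Lgals9 included, was not tested. The hypoxia genes were a comparison of their own.

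Spots high in 10 hypoxia genes, among them Vegfa, Slc2a1 and Car9, had more Cd274 and Pvr and less Cd276, Pdcd1lg2 and Lgals9 than spots low in them. Hence Cd274 and Cd276, which both rose with the interferon list, parted with the hypoxia list. By edgeR's paired test 5 of 9 ligands passed, 2 higher and 3 lower, beside 36.9% of the 13873 genes tested (18.0% higher and 18.9% lower), so the count is near that of all genes. Pvr stood at 19.9, 21.3, 28.5 and 30.7 CPM in hypoxia-high and 13.7, 11.6, 15.8 and 14.1 CPM in hypoxia-low spots, a log2 difference of 1.03 ± 0.097 (SE) (adjusted p = 0.000144). Cd274 stood at 9.75, 8.28, 9.78 and 7.77 against 7.36, 6.49, 6.01 and 6.83 CPM, with 0.58 ± 0.086 (SE) and adjusted p = 0.00132. Both genes were higher in 4 of 4 sections.

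Cd276 was lower in 4 of 4 sections, at 3.22, 1.92, 6.34 and 3.67 CPM in hypoxia-high and 6.85, 5.76, 10.8 and 8.06 CPM in hypoxia-low spots. Its log2 difference was -0.96 ± 0.11 (SE) with adjusted p = 0.000409. Lgals9 fell in 4 of 4 sections, with -0.38 ± 0.069 (SE) (adjusted p = 0.00340). Pdcd1lg2 fell by a fitted -0.78 ± 0.23 (SE) (adjusted p = 0.0262), a call that held in 3 of 8 alternatives and was lost without CC075F1 replicate 1 (adjusted p = 0.0961), CC075F1 replicate 2 (adjusted p = 0.139) or CC080F1 replicate 2 (adjusted p = 0.0556). Cd80, Cd86, Vsir and Nectin2 did not pass, with log2 differences from -0.36 to 0.092. With scaling by total UMIs alone the median of all genes moved from -0.0026 to -0.17 and the 5 calls stood, with Vsir added (-0.33), Cd274 at 0.41, Pvr at 0.85 and Cd276 at -1.13. In the same hypoxia-high spots 11 of 17 stroma genes, 2 of 2 endothelial, 5 of 9 dendritic and 3 of 4 lymphoid genes fell, against 18.9% of all genes, and 1 stroma gene rose. Of 12 macrophage genes 6 fell and 2 rose. Summed, stroma genes were at 0.574 to 1.04, endothelial genes at 0.434 to 0.531, lymphoid genes at 0.401 to 0.605 and macrophage genes at 0.674 to 0.963 times their hypoxia-low level. The part of all these genes in the lower Cd276, Pdcd1lg2 and Lgals9 was not tested.

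Interferon and hypoxia genes tended to be high in different spots, so the comparisons were also made within 10 strata of the other list. Each of these was cut further by spot depth, more coarsely than in the main split. The setting was chosen after the data had been seen. At like hypoxia level the Cd274 difference by interferon was 0.99 ± 0.11 (SE) (adjusted p = 0.000173), and at like interferon level the difference by hypoxia was 0.85 ± 0.087 (SE) (adjusted p = 4.10e-05). Both were larger than in the main split, which was cut within strata of depth only. Cd276 by interferon shrank to 0.30 ± 0.12 (SE) and no longer passed (adjusted p = 0.137), and Cd276 by hypoxia was -0.69 ± 0.081 (SE) (adjusted p = 0.000100). Likewise Pvr by interferon shrank to -0.15 ± 0.059 (SE) (adjusted p = 0.132), whereas Pvr by hypoxia was 0.81 ± 0.058 (SE) (adjusted p = 3.26e-06). Lgals9 and Cd86 by interferon passed in the strata too, with 0.46 ± 0.035 (SE) and 0.64 ± 0.082 (SE), and so did Pdcd1lg2, at a smaller 0.79 ± 0.19 (SE) (adjusted p = 0.0230). By hypoxia Lgals9 shrank to -0.15 ± 0.040 (SE) (adjusted p = 0.0145), and Pdcd1lg2 shrank to -0.38 ± 0.21 (SE) and no longer passed (adjusted p = 0.186). In these strata 5 of 9 ligands rose by interferon, against 10.2% of all genes (7.06% higher and 3.13% lower), and 6 of 9 passed by hypoxia, against 35.3% (18.3% higher and 17.0% lower). Cd86 (0.29 ± 0.062 (SE)) and Nectin2 (0.16 ± 0.056 (SE)) were higher in hypoxia-high spots there, having not passed before.

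**Figure D3:**
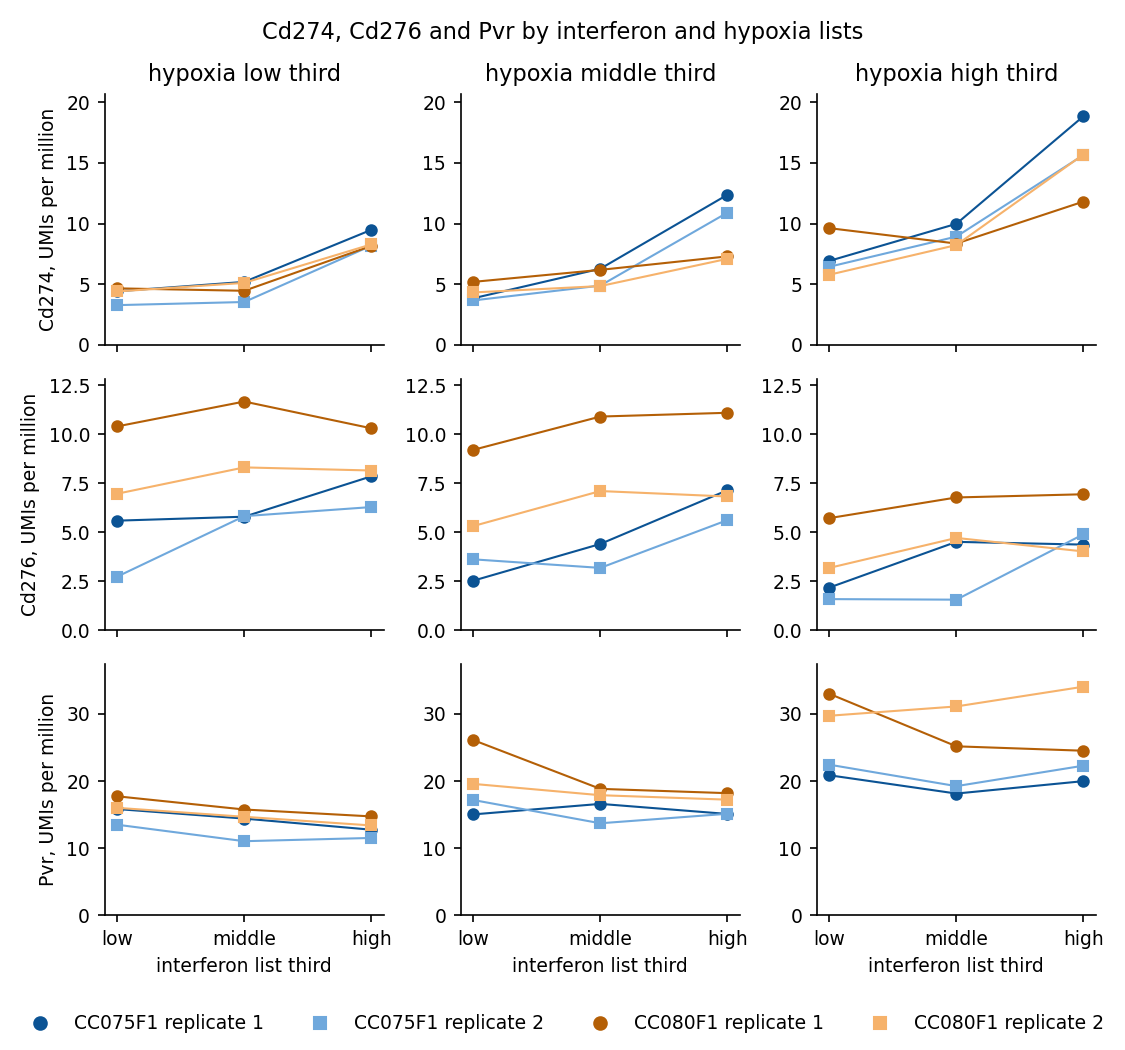
Level of Cd274, Cd276 and Pvr (rows, CPM, from 0) in spots grouped by their rank in the interferon list (horizontal axis) and in the hypoxia list (columns), with a line for each section. Cd274 is highest where both lists are high, at 11.8 to 18.8, Cd276 is lower and Pvr higher in the hypoxia-high column.

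Spots were also grouped by both lists at once, as a description without a test. Spots low in both lists had 4.19 CPM ± 0.619 (SD, n = 4), spots high in hypoxia alone 7.20 ± 1.68, spots high in interferon alone 8.52 ± 0.639 and spots high in both 15.5 ± 2.87. The lowest section of the last group, at 11.8 CPM, was above the highest of the first, at 4.66 CPM. Cd276 ran from 3.16 CPM ± 1.82 where hypoxia alone was high to 8.14 ± 1.65 where interferon alone was high.

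For stromal placement, spots were split in the same way by 17 fibroblast and matrix genes such as Col1a1, Dcn and Pdgfra. Cd274 was lower and Lgals9 higher in stroma-high spots, 2 of 9 ligands by edgeR's paired test, against 9.77% of the 13853 genes tested (3.21% higher and 6.56% lower). Cd274 stood at 7.49, 6.99, 6.56 and 6.39 CPM in stroma-high and 9.24, 7.35, 8.34 and 7.21 CPM in stroma-low spots. It was lower in 4 of 4 sections, with a log2 difference of -0.36 ± 0.076 (SE) (adjusted p = 0.0362). This call was lost without CC075F1 replicate 2 (adjusted p = 0.0797), CC080F1 replicate 1 (adjusted p = 0.146) or CC080F1 replicate 2 (adjusted p = 0.200), and when stroma was split at like hypoxia level (-0.16 ± 0.073 (SE), adjusted p = 0.159). At like hypoxia level Lgals9 alone passed (0.19 ± 0.039 (SE)), against 18.7% of all genes (6.68% higher and 12.0% lower). At like interferon level Cd274 (-0.41 ± 0.090 (SE)) and Lgals9 (0.16 ± 0.043 (SE)) passed, against 10.6% (3.88% higher and 6.76% lower). Scaling by total UMIs alone moved the median of all genes to 0.13 and Cd274 to -0.22 (adjusted p = 0.0995).

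Cd276 stood at 5.07, 6.12, 11.3 and 8.02 CPM in stroma-high and 5.42, 2.19, 7.44 and 4.50 CPM in stroma-low spots. It was higher in 3 of 4 sections, and CC075F1 replicate 1 went slightly the other way. Its log2 difference of 0.58 ± 0.20 (SE) did not pass (adjusted p = 0.111), but did without CC075F1 replicate 1 (0.79, adjusted p = 0.0138). Vsir (0.24, adjusted p = 0.0257) and Pvr (-0.68, adjusted p = 0.00140) passed then as well, as did 2578 of the 14009 genes tested. Lgals9 had 0.26 ± 0.058 (SE) (adjusted p = 0.0380) and was higher in 4 of 4 sections, a call that was lost without CC075F1 replicate 2, CC080F1 replicate 1 or CC080F1 replicate 2 (adjusted p from 0.0840 to 0.205). Macrophage genes summed to 1.18 to 1.42 times their stroma-low level, and their part in the Lgals9 value was not tested. The split was itself uneven, since Col1a1 had log2 ratios of 1.20, 4.98, 1.39 and 2.93, and in CC075F1 replicate 2 muscle genes were 41.9 times as high in stroma-high as in stroma-low spots, a pattern whose part in the result was not tested. No ligand passed the interaction of stroma with strain (0 also at an unadjusted p under 0.05), and 0.0% of genes did.

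The placements of Cd274 and Cd276 were then set against each other within each section, as the log2 ratio of Cd274 minus that of Cd276. By stroma the difference was -0.21, -1.56, -0.95 and -1.01, so Cd274 was relatively less stromal than Cd276 in 4 of 4 sections. Its mean was -0.93 ± 0.56 (SD, n = 4), and the two-sided exact sign-flip permutation test gave p = 0.125, the smallest that 4 sections allow. By hypoxia the difference was 1.49, 1.94, 1.47 and 1.32, with a mean of 1.56 ± 0.27 (SD, n = 4) and the same exact p = 0.125. By interferon it was -0.25, -0.39, 0.032 and 0.00077, with a mean of -0.15 ± 0.20 (SD, n = 4) and exact p = 0.500, lying near 0 in both CC080F1 sections. With interferon split at like hypoxia level it turned to 0.58, 0.71, 0.56 and 0.73, a mean of 0.65 ± 0.088 (SD, n = 4) with exact p = 0.125. At like hypoxia level Cd274 thus exceeded Cd276 in its interferon ratio in 4 of 4 sections.

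Macrophage-high spots, by 12 genes such as Adgre1, Csf1r and C1qa, had more Vsir, Cd86 and Lgals9, which are 3 of 9 ligands against 7.29% of the 13874 genes tested (4.72% higher and 2.57% lower). VISTA's gene had log2 ratios of 0.26, 1.07, 0.65 and 0.71 and a fitted difference of 0.56 ± 0.087 (SE) (adjusted p = 0.0191). Cd86 followed with 0.54 ± 0.12 (SE) (adjusted p = 0.0430) and Lgals9 with 0.44 ± 0.062 (SE) (adjusted p = 0.0158). All 3 were higher in 4 of 4 sections. Without CC080F1 replicate 2 none of the 3 passed (adjusted p from 0.160 to 0.212), nor did any gene. Without CC080F1 replicate 1 Cd86 (adjusted p = 0.0967) and Vsir (adjusted p = 0.0600) did not. In macrophage-high spots 12 of 20 interferon genes also rose, such as Ciita (0.87 ± 0.16 (SE), adjusted p = 0.0289), and 1 of 4 lymphoid genes, Cd8a (0.69 ± 0.16 (SE), adjusted p = 0.0456), while 3 of 10 hypoxia genes fell. The interferon list summed to 1.12 to 1.79 times its macrophage-low level, and its part in the rise of the 3 ligands was not tested. Cd274 did not pass, with ratios of 0.22, 0.18, 0.16 and 0.30 and a fit of 0.095 ± 0.082 (SE) (adjusted p = 0.482).

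Dendritic-high spots, by 10 sparse genes such as Flt3, Xcr1 and Ccr7, gave 0 of 9 ligands in edgeR's paired test, against 6.27% of the 13866 genes tested (2.68% higher and 3.59% lower). At an unadjusted p under 0.05 there were 5 of 9 ligands, beside 3058 of the 13866 genes. Cd80, a costimulator of mature dendritic cells, had log2 ratios above those of the other ligands in 3 of 4 sections, at 0.99, 0.83, 0.44 and 0.81, but its log2 difference of 0.69 ± 0.20 (SE) did not pass (adjusted p = 0.0634). Cd274 was at -0.24 ± 0.069 (SE) (adjusted p = 0.0621) and Cd86 at 0.038 ± 0.059 (SE). The whole list summed to only 104 to 264 CPM, which limits the split. The interactions of macrophage, dendritic and hypoxia genes with strain also gave 0 of 9 ligands, 0 of them at an unadjusted p under 0.05, and 0.0% of all genes.

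Because the interferon list was itself higher in both CC075F1 sections, with 2973 and 2406 CPM in CC075F1 and 1719 and 2169 CPM in CC080F1, Cd274 was also read in 5 bins with the same cut points in all sections. Cd274 in the lowest bin stood at 6.63, 5.05, 6.95 and 4.85 CPM and in the highest at 12.4, 10.9, 20.0 and 12.3 CPM. The lowest bin held 76, 604, 933 and 777 spots and the top bin 1038, 759, 111 and 482 spots. The lowest-bin value of CC075F1 replicate 1 thus rests on 15 Cd274 UMIs and the top-bin value of CC080F1 replicate 1 on 61. The ratio of the strain means, CC075F1 to CC080F1, was 0.990 in the lowest and 0.721 in the highest bin, although Cd274 over whole sections was 1.08 times as high in CC075F1. Cd276 in the same bins ran from 2.21, 1.84, 8.14 and 4.23 to 6.80, 7.23, 11.8 and 6.31 CPM. These values are a description without a test.

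**Figure D4:**
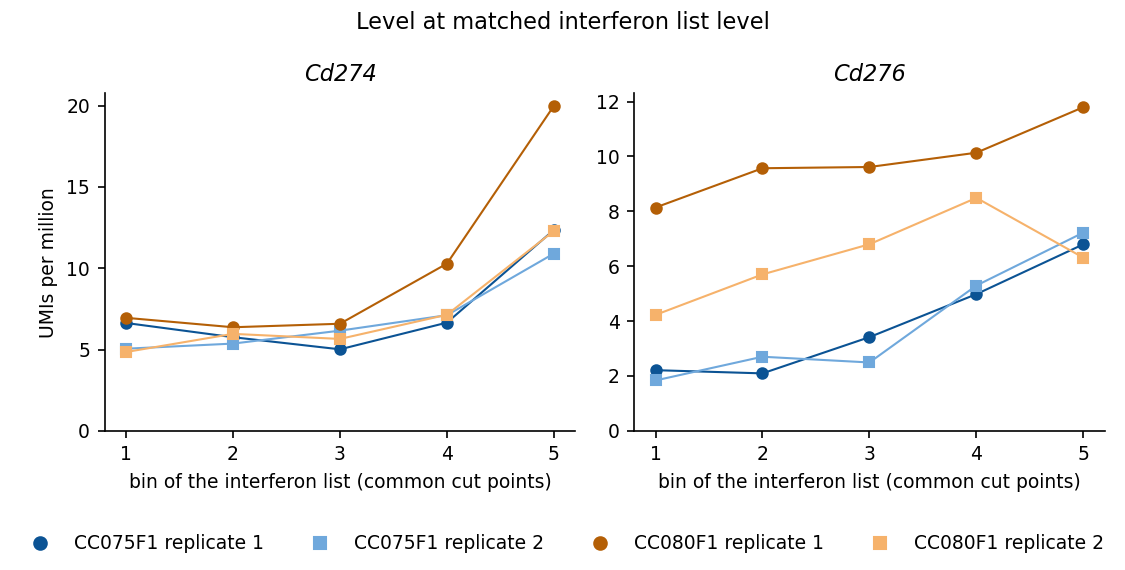
Level of Cd274 and Cd276 (vertical axes, CPM, from 0) in 5 bins of the interferon list with cut points common to the 4 sections (horizontal axis), with a line for each section. Cd274 climbs in the top 2 bins of every section, and CC080F1 replicate 1 has the highest top bin, at 20.0.

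Edge spots, within 3 grid steps of a position off tissue, made up 20.3% to 31.6% of a section. Off-tissue positions enclosed by tissue counted too, and numbered 3, 8, 29 and 2. Spots at the rim of the capture grid numbered 25, 1, 75 and 58. Tissue beyond that rim was not seen, and its part in the edge values was not tested. No ligand passed edge against interior in edgeR's paired test, while 0.871% of the 14345 genes tested did. At an unadjusted p under 0.05 there were 5 of 9 ligands, beside 2614 of the 14345 genes. The nearest were Cd80, with a log2 difference of 1.24 ± 0.24 (SE) (adjusted p = 0.0646), and Cd276, with 0.85 ± 0.17 (SE) (adjusted p = 0.0663). Cd276 stood at 9.46, 9.44, 11.0 and 8.22 CPM in edge and 4.20, 3.03, 8.45 and 5.69 CPM in interior spots, higher at the edge in 4 of 4 sections. Cd80 was likewise higher in 4 of 4, by log2 ratios of 0.86, 1.43, 1.87 and 1.12. Without CC080F1 replicate 1, Cd276 (adjusted p = 0.00862) and Cd86 (adjusted p = 0.0324) passed, as did 854 of 14362 genes. With the outer boundary alone as the edge Cd276 (adjusted p = 0.0449) and Cd80 (adjusted p = 0.0474) did, beside 266 of 14377 genes. The Cd276 difference was as large, at 0.84, without shallow spots and those rich in skin, muscle or fat genes. Of the stroma genes 3 of 17 rose at the edge, against 0.788% of all genes. They were Col1a2 (2.21 ± 0.28 (SE), adjusted p = 0.0222), Col1a1 (2.12 ± 0.32 (SE), adjusted p = 0.0362) and Postn (1.96 ± 0.25 (SE), adjusted p = 0.0220). Col1a1 had log2 ratios of 2.17, 3.13, 0.74 and 2.59, while the summed stroma list stood at 0.964, 2.62, 0.917 and 1.21 times its interior level. The part of stroma genes in the edge values of Cd276 and Cd80 was not tested.

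Every ligand except Cd80 and Pvr had a ratio of edge to interior that was higher in both CC075F1 sections than in both CC080F1 sections. No ligand passed a test of that difference. The share of all genes that parted in this way was not counted, so the pattern is not read as particular to the ligands. For Cd274 the log2 ratios of edge to interior were 0.59, 0.50, -0.026 and 0.013, higher in both CC075F1 sections and near 0 in both CC080F1 sections, with an overall fit of 0.20 ± 0.11 (SE) (adjusted p = 0.358). Lgals9 had ratios of 0.31, 0.23, -0.24 and -0.18, of opposite sign in the strains. Cd276 had the higher CC075F1 ratios as well, at 1.17, 1.64, 0.38 and 0.53, as had Cd86, at 0.49, 0.58, -0.057 and 0.32. The interferon list parted too, its edge level being 1.33, 1.35, 0.873 and 0.910 times its interior level. In edgeR's interaction of edge with strain, 0 of 9 ligands passed, with 4 at an unadjusted p under 0.05, and 0.0837% of genes did. Unadjusted, 1255 of the 14345 genes were under 0.05. The fitted difference between strains was 0.40 ± 0.17 (SE) for Cd274 (adjusted p = 0.565) and 0.33 ± 0.12 (SE) for Lgals9 (adjusted p = 0.478). Neutrophil genes (S100a8 and Retnlg) were 2.64 to 8.13 times as high at the edge as in the interior, and their part in these values was not tested.

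Read by distance, Cd276 went from 10.9, 11.4, 11.6 and 9.55 CPM in the outermost row to 2.99, 2.62, 7.14 and 4.69 CPM at 11 or more steps, lower in 4 of 4 sections. The drop was steeper in the CC075F1 sections, where the deepest spots had 2.99 and 2.62 CPM. Cd274 ran from 13.4, 8.93, 6.34 and 7.30 CPM to 7.02, 6.33, 6.97 and 5.74 CPM over the same distance, lower inside in 3 of 4 sections. Pvr in CC080F1 replicate 1 ran from 37.8 CPM in the outermost row to 15.9 CPM inside, and in the other 3 sections from 18.9, 17.1 and 22.5 to 17.6, 16.9 and 18.6 CPM. Cd86 ran from 13.7, 14.1, 5.49 and 10.7 to 8.97, 8.45, 5.50 and 6.48 CPM, lower inside in 3 of 4 sections and level in CC080F1 replicate 1. The hypoxia list at the edge stood at 0.742 and 0.790 times the interior level in CC075F1 and 1.05 and 1.24 times in CC080F1, and its part in these profiles was not tested. The profiles are descriptions without a test.

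**Figure D5:**
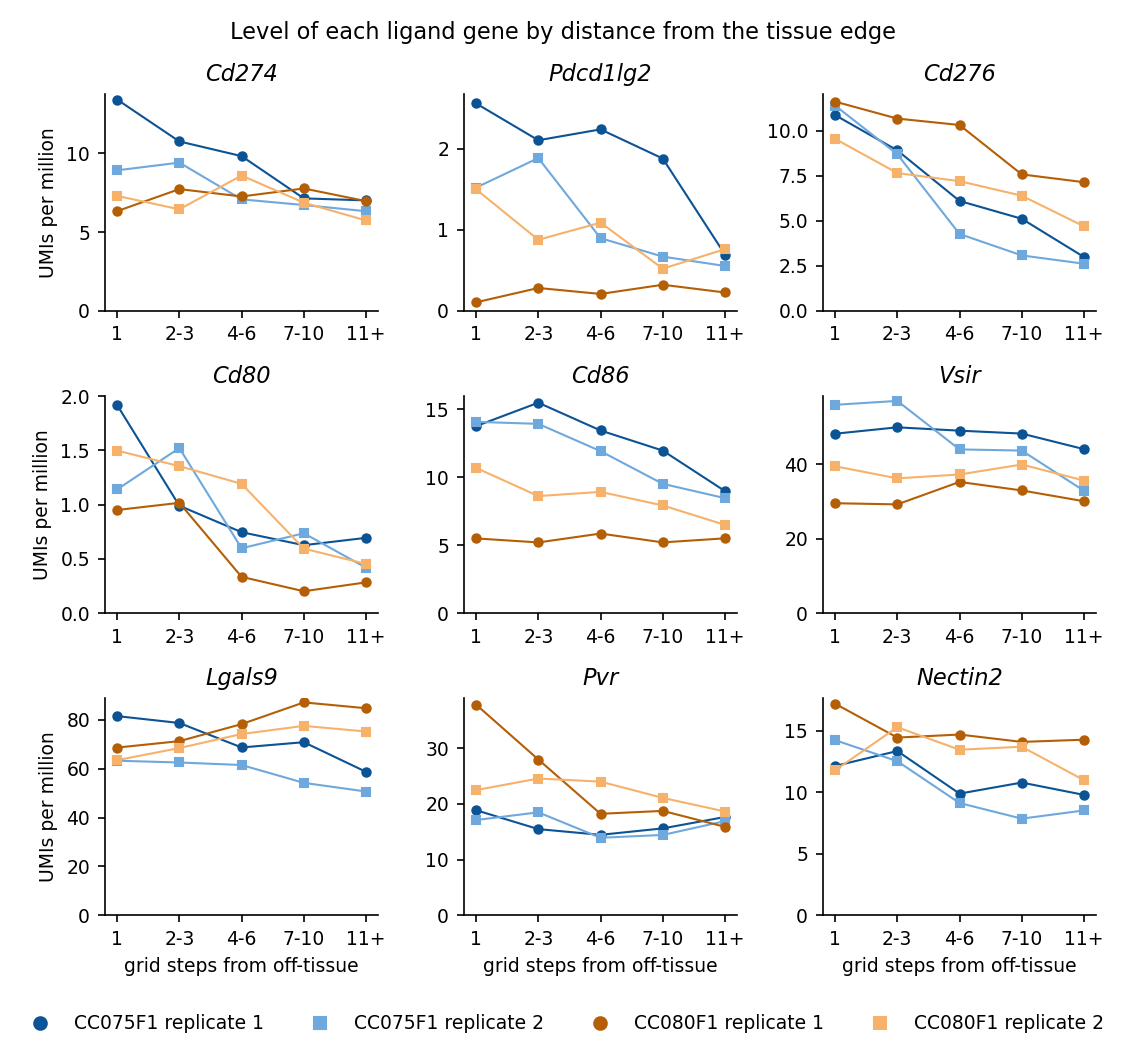
Level of each ligand (vertical axes, CPM, from 0) by the number of grid steps from the nearest position off tissue (horizontal axis, in 5 bins), with a line for each section. Cd276 is lower at each bin inward in all 4 sections, while Cd274 is lower at the deepest than at the outermost bin in both CC075F1 sections and in CC080F1 replicate 2 and stays between 6.34 and 7.78 in CC080F1 replicate 1.

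Receptors that bind these ligands were counted from a list of 12, of which Tigit had only 0 to 2 UMIs per section. Pdcd1, the PD-1 gene, had 536, 416, 152 and 172 UMIs, fewer in both CC080F1 sections. By interferon, 6 of the 10 receptors tested rose, with a median log2 difference of 0.72 beside -0.015 for all genes. They included Cd226, the activating receptor for Pvr and Nectin2 (1.53 ± 0.23 (SE), adjusted p = 0.00312), Ctla4, which binds Cd80 and Cd86 (1.22 ± 0.19 (SE), adjusted p = 0.00343), and Pdcd1 (0.75 ± 0.13 (SE), adjusted p = 0.00547). Over all genes 9.25% rose by interferon, 18.9% fell by hypoxia and 4.72% rose by macrophage genes. By hypoxia 5 of 10 fell (median -0.66), among them Icos (-1.03 ± 0.17 (SE), adjusted p = 0.00202) and Pdcd1 (-0.82 ± 0.16 (SE), adjusted p = 0.00515). Thus Pdcd1 rose with Cd274 by interferon and moved against it by hypoxia. By macrophage genes 2 of 10 rose, Havcr2, which encodes the galectin-9 receptor TIM-3 (0.59 ± 0.090 (SE), adjusted p = 0.0182), and Selplg (0.58 ± 0.087 (SE), adjusted p = 0.0177). Between strains 0 of 11, at the edge 0 of 10, by stroma 0 of 10 and by dendritic genes 0 of 10 passed in edgeR (3, 7, 2 and 4 at an unadjusted p under 0.05). Over all genes 846 of 15572, 2614 of 14345, 4187 of 13853 and 3058 of 13866 were under that unadjusted p.

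Of 22 other checkpoint and costimulatory genes, which include both ligands and receptors, 12 to 18 had enough UMIs to be tested. By interferon 5 of 13 rose, against 9.25% of all genes, and 1 fell (median 0.24), the former including Cd40, an activating receptor of antigen presenting cells (1.19 ± 0.096 (SE), adjusted p = 0.000152), Btla, an inhibitory receptor of lymphocytes (1.00 ± 0.23 (SE), adjusted p = 0.0207) and Icosl, the ICOS ligand (0.64 ± 0.087 (SE), adjusted p = 0.00205). By hypoxia 7 of 13 fell, against 18.9% of all genes (median -0.26), such as Vsig4, a macrophage B7 relative (-1.31 ± 0.30 (SE), adjusted p = 0.00988), and 1 rose, Tnfsf9, the 4-1BB ligand (0.83 ± 0.095 (SE), adjusted p = 0.000393). By macrophage genes 4 of 13 rose, against 4.72%, Icosl (0.74 ± 0.092 (SE), adjusted p = 0.0122) and Sirpa, the CD47 receptor (0.49 ± 0.069 (SE), adjusted p = 0.0156), among them. None of 18 passed between strains (2 at an unadjusted p under 0.05) and none of 15 at the edge (5 at an unadjusted p under 0.05) in edgeR, while 1 of 12 rose by stroma, against 3.21% of all genes, and 2 of 13 by dendritic genes, against 2.68%.

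Of 21 genes of the interferon-gamma pathway and of PD-L1 regulation, 10 rose and 1 fell by interferon, against 9.25% and 7.95% of all genes, though genes shared with the interferon list, such as Irf1, Nlrc5 and Socs1, had helped to make that split. Ifng itself, which had not, rose by 1.35 ± 0.22 (SE), adjusted p = 0.00440. The list's median was 0.17 by interferon and -0.16 by hypoxia. By hypoxia 4 rose and 9 fell, against 18.0% and 18.9%, Ifng (-0.79 ± 0.25 (SE), adjusted p = 0.0346) among those that fell and Myc, a transcription factor, among those that rose (0.37 ± 0.064 (SE), adjusted p = 0.00273). Cd274 was thus higher in hypoxia-high spots, where Ifng was lower. By macrophage genes 6 rose and 1 fell, against 4.72% and 2.57%, the former including Irf8 (0.57 ± 0.11 (SE), adjusted p = 0.0301) and Cmtm6, which keeps PD-L1 at the cell surface (0.33 ± 0.064 (SE), adjusted p = 0.0326). By stroma 1 rose and 2 fell, against 3.21% and 6.56%, and by dendritic genes 2 rose, against 2.68%. Between strains and at the edge 0 of 21 passed in edgeR, with 3 and 5 at an unadjusted p under 0.05.

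Neighbouring spots had weakly alike values. Moran's I of log2(CPM + 1) over the 6 nearest spots, which is 0 for no clustering, was 0.087 to 0.15 for Lgals9, 0.051 to 0.088 for Vsir, 0.036 to 0.099 for Pvr, 0.038 to 0.070 for Cd276 and 0.030 to 0.063 for Cd274. For Cd80 it ran from -0.012 to 0.030 and for Pdcd1lg2 from -0.010 to 0.023, which at so few UMIs says little. Over UMIs summed across a spot and its 6 neighbours, the genes most like Cd274 among 7084 with at least 10 CPM in every section were B2m (mean r = 0.21), Lgals3 (mean r = 0.21), Mt2 (mean r = 0.19), Srgn (mean r = 0.19) and Mt1 (mean r = 0.18), averaged over 4 sections. B2m is the light chain of MHC class I and Mt1 and Mt2 are metallothioneins. Those most like Cd276 were Sparc (mean r = 0.37), Igfbp7 (mean r = 0.37), Col4a1 (mean r = 0.36), Mcam (mean r = 0.34) and Col4a2 (mean r = 0.33), of which Col4a1 and Col4a2 are collagens of basement membranes and Mcam is an adhesion molecule of vessels. No gene was in both groups of 5. The spots share a library and depth, so these correlations are descriptions.

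Between the ligands, the 36 mean correlations ran from -0.10 to 0.22. The highest was that of Vsir with Lgals9, at 0.11 to 0.44 over the sections, followed by Cd276 with Lgals9, at 0.048 to 0.32, and the lowest was that of Lgals9 with Pvr, at -0.19 to 0.034. Cd274 with Cd276 gave -0.085 to 0.049, and the neighbours Cd274 and Pdcd1lg2 gave 0.025 to 0.13. At these UMI counts the correlations are weak, and no order beyond the ends is drawn from them.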

How the data were processed

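Gene expression was measured on 10x Genomics Visium slides in 4 fresh frozen tumor sections. The authors aligned reads with Space Ranger 1.3.1 to mm10 (GRCm38), and deposited UMI counts of every gene in every tissue-covered spot, which had not been normalized. Spot tables that came with them give each spot's grid row and column, from which steps to the nearest off-tissue position were counted. Reads of host alleles that differ from the reference may be counted less well, which was not tested. Sections were grouped by host genotype in the labels, in which replicates are biological.

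UMIs were summed per section, or per section and zone, and tested across all genes passing filterByExpr with edgeR 4.0.16 (quasi-likelihood, TMM, Benjamini-Hochberg, threshold 0.05) in R 4.3.3, with section as a block for zones, and by DESeq2 1.42.0 as an alternative. SEs follow from the F statistics. All 9 ligands passed the filter in each comparison. The edgeR tests between strains and at the edge were also run on simulated counts drawn with the same spread for all genes. This does not show their power on these data. Zone splits used lists of 20 interferon, 17 stroma, 12 macrophage, 10 dendritic cell and 10 hypoxia genes. Exact intervals are Clopper-Pearson at 95%. Section totals of 82594649 to 146460975 UMIs set the precision, and 1 spot with 0 UMIs was kept. The ligands and lists were chosen with earlier results of these data known. Named beyond the ligands were at most 4 called genes per list by size of the log2 difference, Cxcl9 and Col1a1 as leading genes, and for Cd274 and Cd276 the 5 most alike genes. The epithelial genes and Shisal2b were added as a check of the label. Other widths, cuts, scalings and left-out sections were tried (closing section). An item withheld from this text is not reported here. Python 3.11.15, scipy 1.17.1 and matplotlib 3.10.9 were used for the rest.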

Additional observations from a re-analysis of the deposited data

Results flagged for a closer look

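Lgals9 had log2 ratios of edge to interior of 0.31 and 0.23 in the CC075F1 sections and of -0.24 and -0.18 in the CC080F1 sections, so both sections of a strain moved one way and both of the other strain the opposite way. The strain means differed by 0.48, and edgeR's interaction term did not pass (adjusted p = 0.478). Cxcl9, the leading gene of the interferon list, parted in the same way at the edge, with 0.73 and 0.55 against -0.34 and -0.10, a difference of 0.86 (adjusted p = 0.161). Nectin2 by interferon had 0.32 and 0.32 in CC075F1 against -0.042 and -0.044 in CC080F1, a difference of 0.36 (adjusted p = 0.915).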

How the results depend on the processing

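Of 531 single-gene values under alternatives, 457 kept direction and side of the threshold, 28 lost a call, 20 gained a call and 26 changed sign, none of them a called value. Cd274 by interferon and by hypoxia, Lgals9 by both, Cd86 by interferon, Pdcd1lg2 by interferon, Cd276 by hypoxia and Pvr by hypoxia passed in all 8 alternatives run for each. The causes of the changes below were not tested. Calls between strains rose from 0 to 1 ligand, Cd86, without the low-count filter and under a replicate block (adjusted p = 0.0199). Over all genes 480 of 22507 passed without that filter and 287 of 15572 under the block. The deviations of same-numbered sections correlated at 0.44 over 8413 genes, but with 2 pairs the sections share only a number and were not treated as paired. At the edge 2 ligands passed with the outer boundary only, and 0 to 2 with a section left out, the 2 without CC080F1 replicate 1. Over all genes 266 of 14377 passed with the outer boundary only and 854 of 14362 without CC080F1 replicate 1. By stroma 1 passed with spots cut at the median, 1 without depth strata and 1 at like hypoxia level (chosen after the data were seen). Over all genes 1343 of 14405, 870 of 13787 and 2590 of 13859 passed in these settings. With a section left out 0 to 5 ligands passed, the highest without CC075F1 replicate 1 and 0 without each of the others. Over all genes 2578 of 14009 passed without CC075F1 replicate 1. Without CC075F1 replicate 2, CC080F1 replicate 1 and CC080F1 replicate 2 there were 270, 21 and 0. By macrophage genes 2 passed with the cut at the median (Cd86 was lost), 1 without depth strata and 0 to 4 with a section left out. Over all genes 670 of 14455 passed with that cut, 356 of 13808 without depth strata and 0 to 1063 with a section left out. By dendritic genes 1 ligand passed with the median cut, 3 with library size only and 0 to 2 with a section left out, the 2 without CC075F1 replicate 1. Over all genes 776 of 14472, 1227 of 13866 and, without CC075F1 replicate 1, 1107 of 14011 passed. Cd274 minus Cd276 by interferon turned from -0.15 to 0.65 at like hypoxia level.

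Signs changed with library size only for Lgals9 at the edge (0.028), Cd86 by stroma (0.12), Cd86 by hypoxia (-0.15) and Nectin2 by hypoxia (-0.080). With interior spots only it changed for Pvr between strains (0.11), with spots cut at the median Nectin2 by macrophage (-0.0038) and dendritic genes (-0.0031), and by stroma Cd86 without depth strata (0.049), Cd86 at like hypoxia (0.00069) and Pdcd1lg2 at like interferon level (-0.0061). With a section left out the ranges were -0.16 to 0.092 for Lgals9 and -0.32 to 0.17 for Pvr between strains, -0.042 to 0.15 for Vsir and -0.13 to 0.036 for Lgals9 at the edge, -0.060 to 0.075, -0.038 to 0.053 and -0.0095 to 0.045 for Nectin2 by interferon, macrophage and dendritic genes, -0.17 to 0.75 for Pdcd1lg2 and -0.16 to 0.074 for Cd86 by stroma and -0.029 to 0.078 for Cd86 by hypoxia.

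Over all genes the calls (range over alternatives) were 14 (11 to 480) between strains, 125 (1 to 854) at the edge, 2386 (755 to 3419) by interferon, 1353 (0 to 2590) by stroma, 1012 (0 to 1063) by macrophage, 870 (195 to 1227) by dendritic and 5125 (2863 to 6614) by hypoxia genes. Library size only moved 1283 higher and 1103 lower to 2780 and 406 by interferon, 444 higher and 909 lower to 2060 and 198 by stroma, 655 higher and 357 lower to 933 and 64 by macrophage, 372 higher and 498 lower to 1023 and 204 by dendritic, 2501 higher and 2624 lower to 990 and 5624 by hypoxia genes and 9 higher and 5 lower to 22 and 18 between strains.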
